A study of Homo sapiens with 6 samples.

Results

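Glycolysis converts glucose to pyruvate and lactate, and the 36 genes described here were taken as that pathway in Kasumi-1 cells together with the steps that bring glucose in, carry lactate out and connect pyruvate to the mitochondrion. The rule for the list used gene names and no measured value, although earlier results of these data were known when it was made, and all 36 were found among the 29810 genes of the table. The list holds 2 glucose transporters, 10 genes of the steps that invest ATP or lead to glucose 6-phosphate by another route, 3 genes that set the level of fructose 2,6-bisphosphate, 8 genes of the steps that return ATP, 2 genes of the 2,3-bisphosphoglycerate branch, 4 genes of lactate formation and transport, 5 genes of the pyruvate dehydrogenase complex and its control, and 2 phosphoglucomutases.

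Kasumi-1 is a human acute myeloid leukemia cell line in which the translocation t(8;21) joins RUNX1 to RUNX1T1. The study asked which genes respond to I3, a histone deacetylase inhibitor made by its authors. mRNA-seq was available for 3 control libraries and 3 libraries of cells kept with 0.25 μM I3, each after 48 h, and the controls received the solvent DMSO according to the methods. Labels and methods were followed for the name and the time, whereas a figure legend of the study gives a longer incubation and the title of the deposited table spells the compound I13, which the values cannot settle. Both groups are the same unmodified cell line with no other agent. The study states that its experiments were done 3 times without saying whether the libraries of a group came from separate cultures, so the p-values measure only the spread between these libraries. A single cell line at 1 dose and 1 time limits what the groups can stand for.

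The deposited unit is FPKM, fragments normalized to the exon length of the gene and to the size of the library. Rebuilt reads gave a depth of 17500320 to 18193372 per library. The 8 myeloid markers listed for Kasumi-1 all had a mean of at least 0.5 FPKM, and their summed level was 8142 to 8974 FPKM in control and 8100 to 8674 FPKM in I3 libraries. Most of that sum came from MPO. Of 12 markers of other cell types, 9 were in the table, 5 of these stayed under 0.5 FPKM in every library, and the summed level was 32.4 to 34.7 FPKM in control and 32.5 to 35.4 FPKM in I3 libraries, most of it from the epithelial marker EPCAM. The libraries differed in how expression followed the GC content of a gene, with rank correlations between -0.45 and 0.45 that did not separate the groups. Control 1 stood apart for several of the genes described here, and the results that rest on it are given with and without that library.

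Glucose enters through facilitative transporters and is trapped in the cell by hexokinase. Phosphofructokinase commits it to glycolysis, and fructose 2,6-bisphosphate, made and removed by the PFKFB enzymes, is the strongest activator of that step. Pyruvate is then either reduced to lactate, which leaves by monocarboxylate transporters, or oxidized by the pyruvate dehydrogenase complex, which the PDK kinases switch off. Leukemia cells, like other proliferating cells, are known for a high rate of glycolysis even where oxygen is present.

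The pathway was expressed from end to end, with at least 1 gene at a mean of 10 FPKM or more at every step from glucose entry to lactate export. GAPDH, which oxidizes glyceraldehyde 3-phosphate, was the highest, at 939.9, 981 and 987 FPKM in control 1, 2 and 3 and 913, 984 and 883 FPKM in I3 1, 2 and 3. Its mean of 948 FPKM placed it at rank 34 of all genes in the table. ENO1, the enolase found in most tissues, had 489, 513 and 498 FPKM in the controls and 449, 486 and 456 FPKM after I3, given here and below in the order of the libraries 1, 2 and 3. LDHB, the lactate dehydrogenase subunit typical of heart, had 391, 441 and 421 FPKM in the controls and 397, 440.2 and 407 FPKM after I3. TPI1, which interconverts the triose phosphates, had 255, 266 and 266 FPKM in the controls and 247, 264 and 234 FPKM after I3. These genes kept the order GAPDH, ENO1, LDHB and TPI1 with no overlap between neighbours in any library. Together the 4 genes made up 66.1% to 68.6% of the summed FPKM of all 36.

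Below them came PGK1 (phosphoglycerate kinase) at a mean of 127 FPKM, PGAM1 (phosphoglycerate mutase) at 122, LDHA (the lactate dehydrogenase subunit typical of muscle) at 109.9 and ALDOA (the main aldolase of most tissues) at 105, and each of these overlapped the next across libraries. ALDOA lay clear of PKM, pyruvate kinase, at 72.9 FPKM, and PKM lay clear of GPI, glucose phosphate isomerase, at 50.9 FPKM. From GPI down through the lactate transporter SLC16A1 (48.3 FPKM), PFKP (41.9), HK2 (39.6), PFKL (34.5), PGM2 (31.7) and HK1 (31.4), no neighbours in the order were separated. The lowest tested gene was PFKFB2 at 0.523 FPKM, and ENO2, PFKM and HK3 stayed under a mean of 0.5 FPKM at 0.439, 0.216 and 0.0885 FPKM. FPKM here divides by every annotated exon of a gene, so genes with a long exon set, such as PDK1 with 14883 bases, are listed lower than a single transcript would be. In GENCODE release 29, a second gene model on the same strand covers 42.31% of the exon bases of ALDOA and 33.42% of those of LDHB. Neither of these models is listed among the genes of the table. MAP3K15 covers 21.28% of the exon bases of PDHA1 on the opposite strand. This limits how firmly the levels of ALDOA and LDHB can be assigned, and that of PDHA1 if counting ignored the strand.

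**Figure D1:**
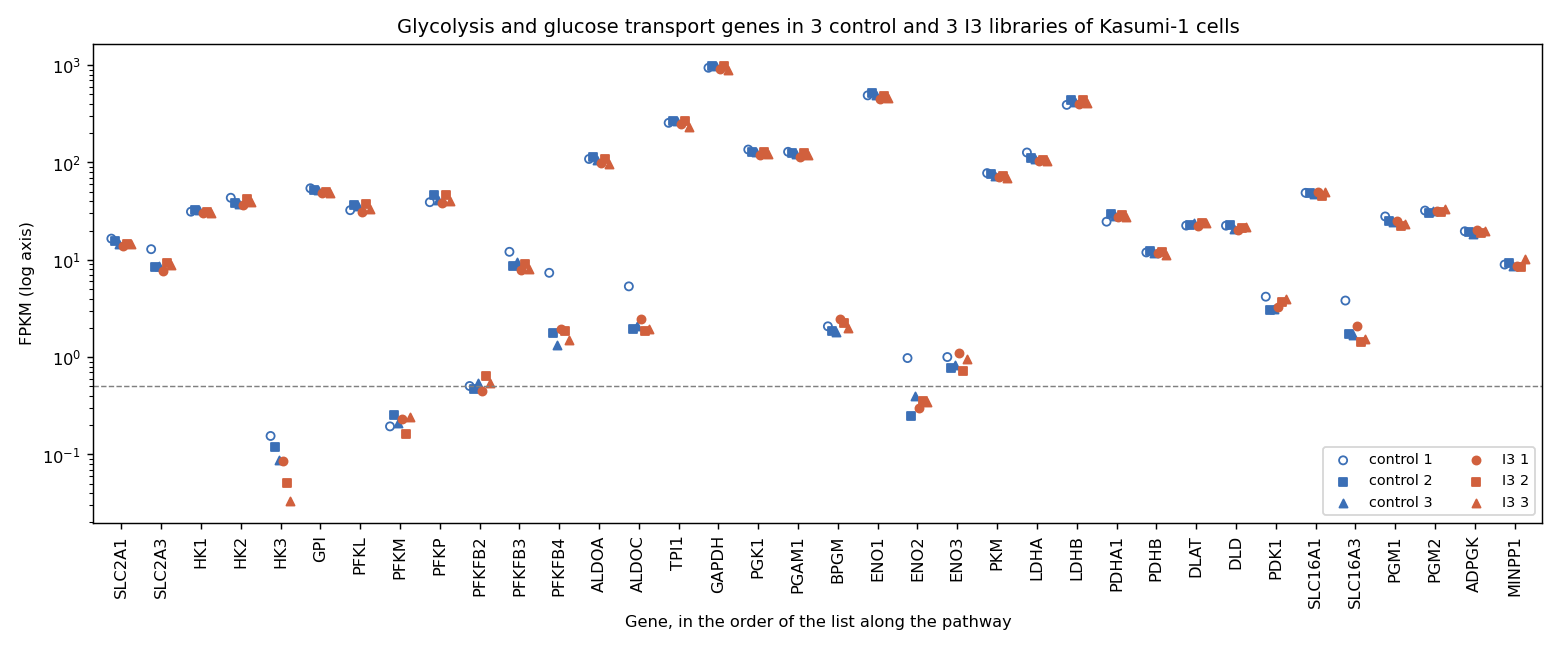
FPKM of the 36 glycolysis and glucose transport genes (y axis, log scale) in each of the 6 libraries, in the order of the list along the pathway, with controls in blue, I3 in orange and the minimum mean of 0.5 FPKM for testing as a dashed line. The symbols of most genes fall on top of each other, GAPDH is highest between 883 and 987 FPKM, and the open circles of control 1 lie above the other libraries for PFKFB4, ALDOC, ENO2 and SLC16A3.

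At each step with several isozymes, 1 or 2 of them made up nearly all of the level, and their shares overlapped between control and I3 libraries with 1 exception. SLC2A1 (GLUT1) supplied 56.2% to 64.6% of the FPKM of both glucose transporters and SLC2A3 (GLUT3) the rest. HK1 and HK2 divided the hexokinase level, HK1 with 41.8% to 46.2% of it and HK2 with nearly all of the rest, whereas HK3 gave only 2 to 9 reads per library. PFKP, the platelet phosphofructokinase, had 53.2% to 55.6% and PFKL, the liver form, 44.1% to 46.5%, while the muscle form PFKM stayed between 0.193% and 0.330%. ALDOA held 95.3% to 98.3% of the aldolase level, ENO1 99.6% to 99.8% of the enolase level and SLC16A1 92.8% to 97.0% of the sum of SLC16A1 and SLC16A3. SLC16A7, a monocarboxylate transporter outside the list, was not in that sum and lay above SLC16A3 in every library. Its means were 2.94 FPKM in control and 3.51 FPKM in I3 libraries, against 2.405 and 1.695 FPKM for SLC16A3. LDHB outweighed LDHA in every library, with LDHA at 19.5% to 24.5%. All these shares divide by exon length, which was 4836 bases for PFKP and 8926 for PFKL. Summed over the controls, PFKL had more reads than PFKP, 16539 against 10794. Which phosphofructokinase is the larger part therefore depends on the length used. LDHA (6210 bases) had 37918 reads and LDHB (2983 bases) 66009, so LDHB led by reads too, but by less.

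Of 17 shares compared by two-sided exact permutation tests, whose smallest possible p with 3 against 3 libraries is 0.1, none had an adjusted p below 0.956. Only the share of PGM1, which moves glucose between its 1- and 6-phosphates, in the sum of PGM1 and PGM2 did not overlap between the groups. It was 46.5%, 44.9% and 43.8% in control 1, 2 and 3, against 43.6%, 41.9% and 41.1% in I3 1, 2 and 3, a difference of -2.87 percentage points (exact p = 0.1, adjusted p = 0.956), and the nearest control and I3 libraries lay close together. In control 1 PFKFB4 reached 36.9% of the PFKFB level against 11.7% to 18.9% in the other 5 libraries, LDHA reached 24.5% of the lactate dehydrogenase level against 19.5% to 20.6%, and SLC16A3 reached 7.25% of the sum of SLC16A1 and SLC16A3 against 3.04% to 4.05%. Control 1 was also the lowest library of LDHB, which adds to the share of LDHA there.

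**Figure D2:**
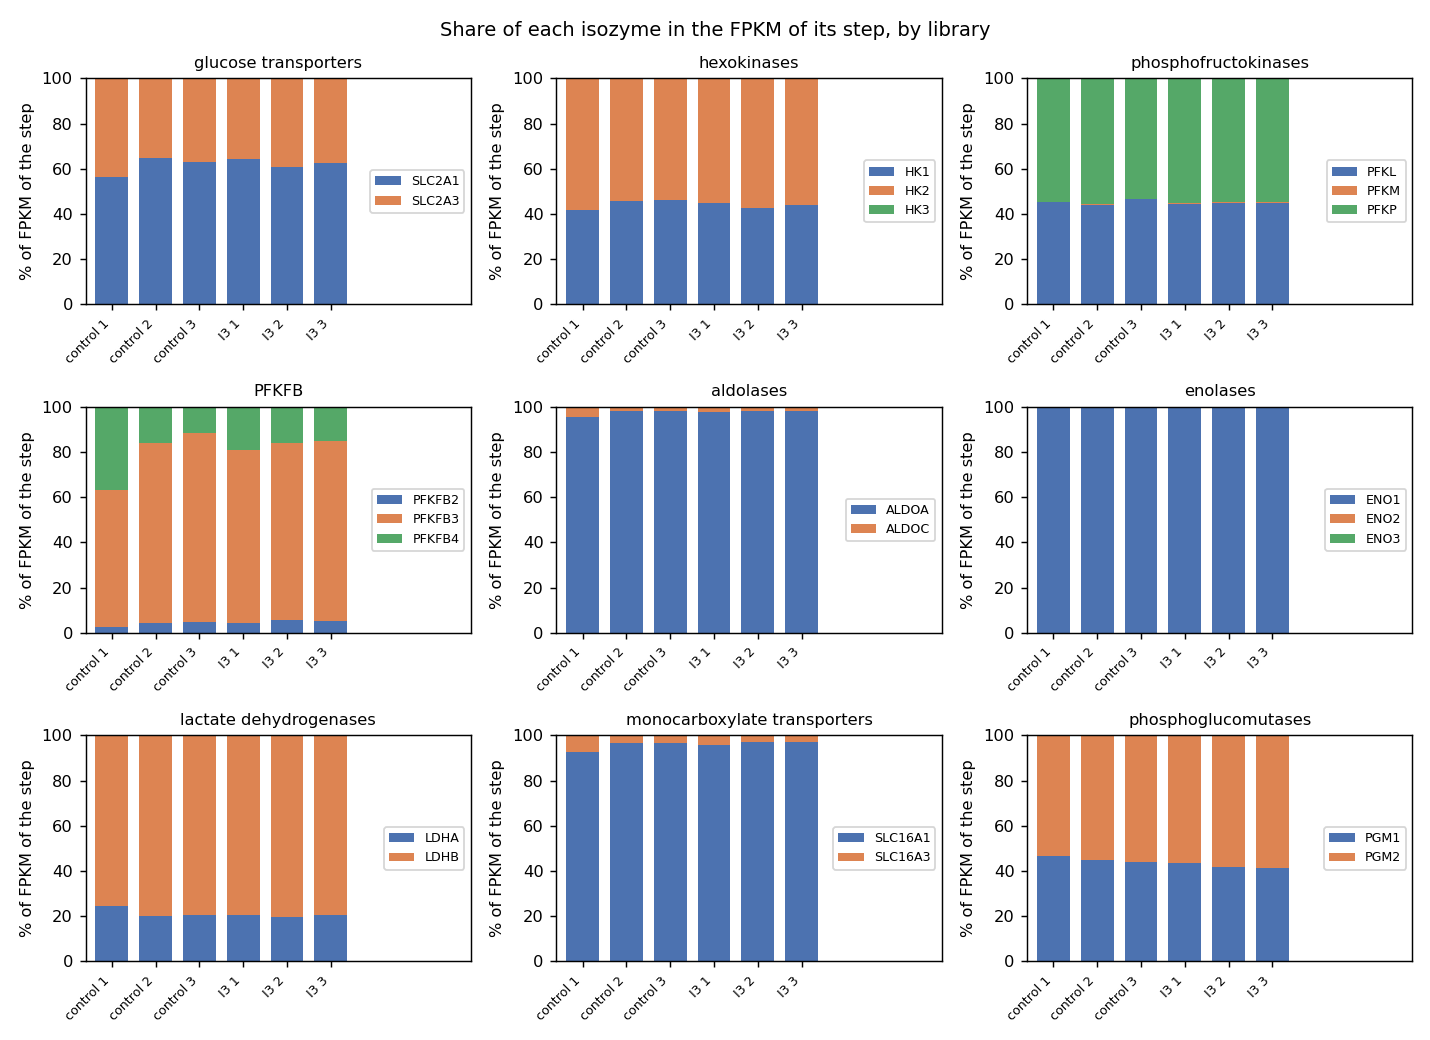
Share of each isozyme in the summed FPKM of its step (y axis, percent) for 9 steps, with 1 stacked bar per library. PFKFB4 takes 36.9% of the PFKFB level in control 1 and at most 18.9% in the other libraries, and LDHB is the larger part of lactate dehydrogenase in all 6 libraries.

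The comparison of I3 with control asked whether the drug changed the transcripts of this pathway, and no gene of it passed the test. With limma on log2(FPKM + 0.5), 33 of the 36 genes could be tested, and none was called at an adjusted p of 0.05 with a log2 fold change of at least 0.58, where 0.0% of the 12960 tested genes were called. With DESeq the study reported genes changed in both directions at these thresholds. The absence of calls here therefore does not by itself show that the pathway was unchanged. At an unadjusted p below 0.05, 0 of the 33 were higher and 0 were lower after I3, against 2.08% and 2.85% of all tested genes, and limma-voom on rebuilt reads put 1, PFKFB3, below that unadjusted p and called none. The 95% interval of the fold change lay within ±0.58 for 30 of the 33, against 81.6% of all tested genes, and PFKFB4, ALDOC and SLC16A3 were the exceptions. In the 23 genes that averaged 10 FPKM or more, fitted log2 fold changes ran from -0.14 to 0.036, and no interval reached beyond -0.30 or 0.21. In these bulk libraries a smaller number of expressing cells and less RNA per cell cannot be told apart.

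The fitted value was below 0 for 24 of the 33 genes, against 45.8% of all tested genes, and the median log2 fold change was -0.065 against 0.011. The genes share libraries, so this count describes 6 samples and not 33 observations. Relative to each gene's own mean on the log2 scale, the median over the 33 genes was 0.048, 0.022 and -0.011 in control 1, 2 and 3 and -0.067, 0.014 and -0.057 in I3 1, 2 and 3. I3 1 and I3 3 were therefore low and I3 2 was not, so the groups overlapped. The summed level of the 36 genes was 3179 ± 46.1 FPKM (SD, n = 3) in control and 3028 ± 132.8 FPKM (SD, n = 3) in I3 libraries, and these also overlapped (exact permutation test, p = 0.3).

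**Figure D3:**
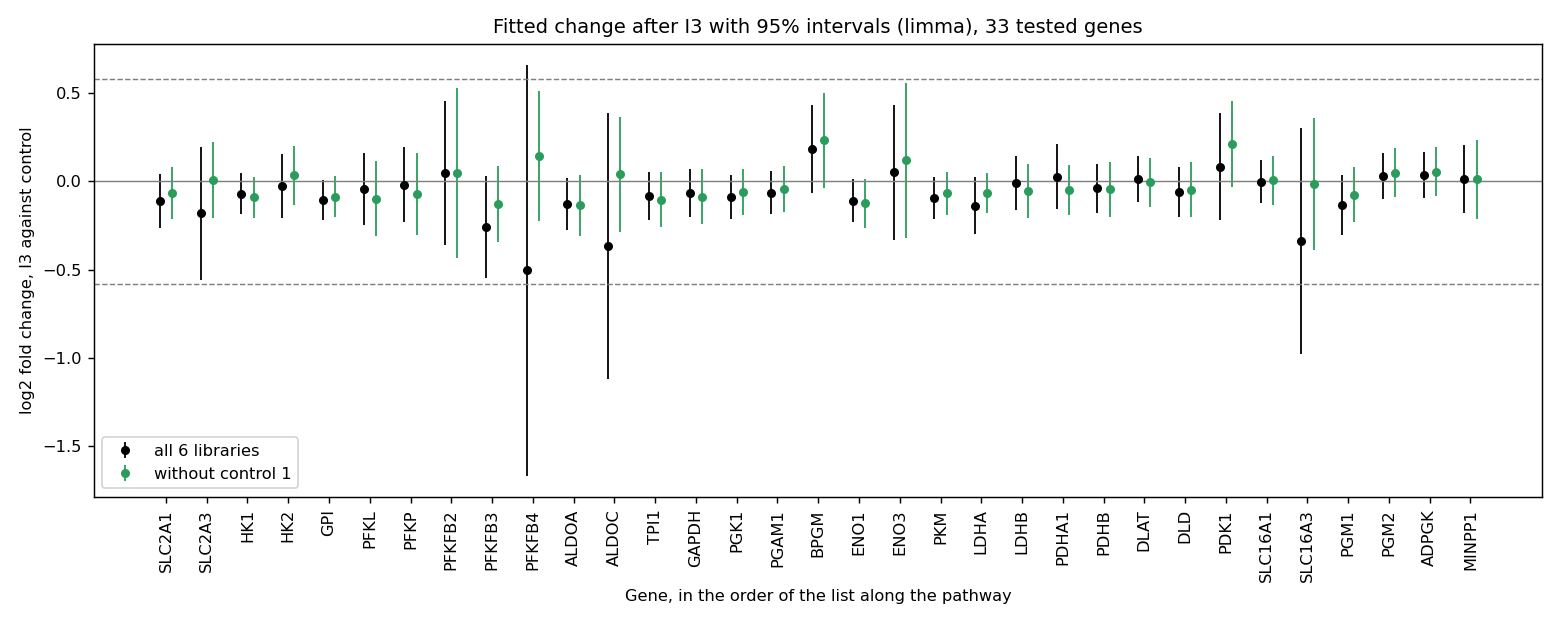
Fitted log2 fold change of I3 against control (y axis) with 95% intervals from limma for the 33 tested genes, with all 6 libraries in black and without control 1 in green, and the threshold of ±0.58 dashed. Every interval includes 0, and the widest, that of PFKFB4, narrows from -1.67 to 0.66 with all libraries to -0.23 to 0.51 without control 1.

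Among the genes of glucose entry and the ATP-investing steps, HK1 and GPI were lower in every I3 library than in every control. Such a pattern held for 5 of the 33 tested genes, HK1, GPI, ENO1, PKM and LDHA, against 4.64% of all tested genes, and the opposite pattern for 0 of the 33, against 5.06%. HK3, below the minimum for testing, was lower by FPKM in every I3 library, on 2 to 9 reads. Its nearest libraries, control 3 and I3 1, had 5 reads each, so the reads alone do not separate its groups. HK1, a hexokinase of most tissues, had 31.2, 32.7 and 32.5 FPKM in the controls and 30.0, 31.2 and 30.5 FPKM after I3. GPI, which turns glucose 6-phosphate into fructose 6-phosphate, had 54.3, 52.3 and 51.8 FPKM in the controls and 48.1, 50.3 and 48.7 FPKM after I3, or 52.8 ± 1.33 FPKM in control and 49.0 ± 1.14 FPKM in I3 libraries (SD, n = 3 each). Its unadjusted p was the smallest of the list, and the change was still not called (log2 fold change -0.11, 95% interval -0.22 to 0.0076, limma adjusted p = 0.998). For SLC2A1 the values were 16.5, 15.5 and 14.6 FPKM and 13.8, 14.5 and 14.6 FPKM (log2 fold change -0.11, 95% interval -0.26 to 0.042, limma adjusted p = 0.998), and I3 3 lay just above control 3. HK2, the hexokinase often high in tumor cells, had 43.4, 38.7 and 37.8 FPKM and 36.7, 42.0 and 39.0 FPKM, with control 1 and I3 2 the high libraries. PFKL had 32.4, 36.9 and 35.7 FPKM in the controls and 31.2, 37.8 and 32.9 FPKM after I3. PFKP had 39.1, 46.5 and 40.8 FPKM in the controls and 38.6, 46.1 and 40.0 FPKM after I3. Both genes were highest in control 2 and I3 2, and their groups overlapped. ALDOA had 109, 115 and 106 FPKM in the controls and 98.3, 108 and 95.4 FPKM after I3 (log2 fold change -0.13, 95% interval -0.28 to 0.021, limma adjusted p = 0.998), with I3 2 inside the range of the controls. ADPGK, an ADP-dependent glucokinase, had group means of 19.2 and 19.7 FPKM.

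Of the 7 tested genes of the ATP-returning steps, 6 were fitted below 0, and none passed the test. ENO1 had 500.2 ± 11.9 FPKM in control and 464 ± 19.6 FPKM in I3 libraries (SD, n = 3 each), with the highest I3 library at 486 FPKM and the lowest control at 489 FPKM (log2 fold change -0.11, 95% interval -0.23 to 0.011, limma adjusted p = 0.998). PKM, which forms pyruvate, had 77.8, 75.7 and 72.4 FPKM in the controls and 70.7, 72.2 and 68.8 FPKM after I3 (log2 fold change -0.092, 95% interval -0.21 to 0.027, limma adjusted p = 0.998), and the nearest libraries of the groups again almost touched. For ENO1 and PKM, as for HK1, GPI and LDHA, the exact permutation p was 0.1, the smallest that 3 against 3 can give. PGK1 had 136, 129.5 and 128 FPKM in the controls and 119, 129 and 122 FPKM after I3. PGAM1 had 129, 124 and 122 FPKM in the controls and 115, 125 and 119 FPKM after I3. In both genes I3 2 lay among the controls. The log2 fold changes of TPI1, PGK1 and PGAM1 were -0.084, -0.087 and -0.065, all with intervals that include 0. ENO3, the muscle enolase, stayed between 0.720 and 1.11 FPKM. Annotated pseudogenes of GAPDH in the table carried reads equal to 0.270% of the reads of GAPDH, and those of TPI1 1.513%.

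GAPDH served as the reference gene for RT-PCR in the study, and it is described here as such. It varied with a coefficient of variation of 4.58% over the 6 libraries, and 3 of 12 other commonly used reference genes varied less, within a range of 3.55% to 9.91%. Its log2 fold change was -0.066 with a 95% interval of -0.20 to 0.068, and control and I3 libraries overlapped.

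All 4 genes of lactate formation and export were fitted below 0, and none passed the test. The fitted sign of LDHB, SLC16A1 and SLC16A3 turned in at least 1 alternative to the main test. The log2 fold change of SLC16A3 was -0.34 with all libraries and -0.015 without control 1. LDHA had 127, 111 and 108 FPKM in the controls and 103, 107 and 104 FPKM after I3. The groups did not overlap, but control 1 was the high library and the gap between control 3 and I3 2 was small (log2 fold change -0.14, 95% interval -0.30 to 0.022, limma adjusted p = 0.998). LDHB had group means of 418 ± 25.3 FPKM in control and 415 ± 22.7 FPKM in I3 libraries (SD, n = 3 each), with a log2 fold change of -0.010. SLC16A1 (MCT1), the more abundant lactate transporter, had 48.8, 48.6 and 47.5 FPKM and 49.6, 45.8 and 49.5 FPKM, and its log2 fold change of -0.0014 was the closest to 0 in the list, with a 95% interval of -0.13 to 0.12.

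At the entry to the mitochondrion the catalytic genes overlapped between the groups. Of the E1 subunit genes, PDHA1 had means of 27.5 and 27.9 FPKM in control and I3 libraries, and PDHB lay between 11.1 and 12.4 FPKM in every library. DLAT, the acetyltransferase, had 23.1 and 23.4 FPKM, and DLD, the shared dehydrogenase, 22.1 and 21.1 FPKM. PDK1, which phosphorylates and inhibits the complex, had 4.18, 3.02 and 3.16 FPKM in the controls and 3.27, 3.72 and 3.99 FPKM after I3. Control 1 was its highest library, and without control 1 all 3 I3 libraries lay above both remaining controls (log2 fold change 0.21, 95% interval -0.032 to 0.45). In the branch through 2,3-bisphosphoglycerate, BPGM, whose enzyme makes that metabolite, had 2.07, 1.84 and 1.82 FPKM in the controls and 2.48, 2.24 and 2.01 FPKM after I3, the highest fitted value of the list at 0.18, with overlapping groups and an interval of -0.064 to 0.43. MINPP1, which can remove a phosphate from it, had means of 8.97 and 9.09 FPKM. PGM1 had 27.9, 24.9 and 24.5 FPKM in the controls and 24.8, 22.1 and 23.4 FPKM after I3 with 1 overlapping pair, I3 1 and control 3, and PGM2 had means of 31.4 and 32.1 FPKM.

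A single control library carried the largest differences in the pathway. Control 1 was the highest of the 6 libraries for 14 of the 33 tested genes, against 22.9% of all tested genes, and exceeded the next highest library at least 1.5-fold for 3, PFKFB4, ALDOC and SLC16A3, against 1.08%. ENO2, below the minimum for testing, did so too. No gene of the list exceeded the other libraries by this much in any of the other 5. These genes were singled out after their values were seen, so the values are a description of this library and not a test.

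PFKFB4, an isoform of the enzyme that makes and removes fructose 2,6-bisphosphate (chr3:48517684-48562015, minus strand, hg38), had 7.35, 1.77 and 1.34 FPKM in the controls and 1.94, 1.86 and 1.49 FPKM after I3. The high value rests on 793 reads in control 1 against 143 to 211 in each other library, and the read rate in control 1 was 4.73 times that of the other 2 controls (95% exact interval 4.16 to 5.39, which covers counting error only). ALDOC, the aldolase typical of brain (chr17:28573115-28577264, minus strand), had 5.34, 1.96 and 2.07 FPKM and 2.49, 1.84 and 1.95 FPKM, a ratio of 2.65 (2.21 to 3.19) between control 1 and the other controls. SLC16A3 (MCT4), a transporter suited to lactate export (chr17:82228397-82261129, plus strand), had 3.81, 1.72 and 1.68 FPKM and 2.09, 1.44 and 1.55 FPKM, a ratio of 2.24 (1.99 to 2.52). ENO2, the neuronal enolase (chr12:6913745-6923698, plus strand), had 0.979, 0.249 and 0.400 FPKM and 0.301, 0.354 and 0.347 FPKM on 19 to 74 reads, a ratio of 3.02 (2.08 to 4.42). In each of these genes control 1 was the high library, and control and I3 libraries overlapped among the other 5.

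Smaller excesses of control 1 were seen in some genes of the same steps, and others were low in that library. SLC2A3, a high-affinity glucose transporter, had 12.9, 8.47 and 8.60 FPKM in the controls and 7.71, 9.30 and 8.78 FPKM after I3, a ratio of 1.51 (1.41 to 1.62) between control 1 and the other controls. PFKFB3, the PFKFB isoform with the strongest kinase activity, had 12.1, 8.68 and 9.61 FPKM and 7.86, 9.14 and 7.98 FPKM, a ratio of 1.32 (1.23 to 1.42). For PDK1 the ratio was 1.35 (1.25 to 1.46) and for LDHA 1.16 (1.13 to 1.18). PFKFB2, in contrast, had 0.505, 0.474 and 0.538 FPKM and 0.451, 0.634 and 0.539 FPKM, with control 1 inside the range of the others. PFKL, PFKP, LDHB and PDHA1 were among the genes lower in control 1 than in the other controls. Their ratios were 0.891 (0.862 to 0.921), 0.896 (0.859 to 0.933), 0.906 (0.891 to 0.921) and 0.853 (0.809 to 0.900). Of the 23 genes that averaged 10 FPKM or more, 8 were highest in control 1 (SLC2A1, HK2, GPI, PGK1, PGAM1, PKM, LDHA and PGM1), and the 4 most abundant, GAPDH, ENO1, LDHB and TPI1, were not among them.

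**Figure D4:**
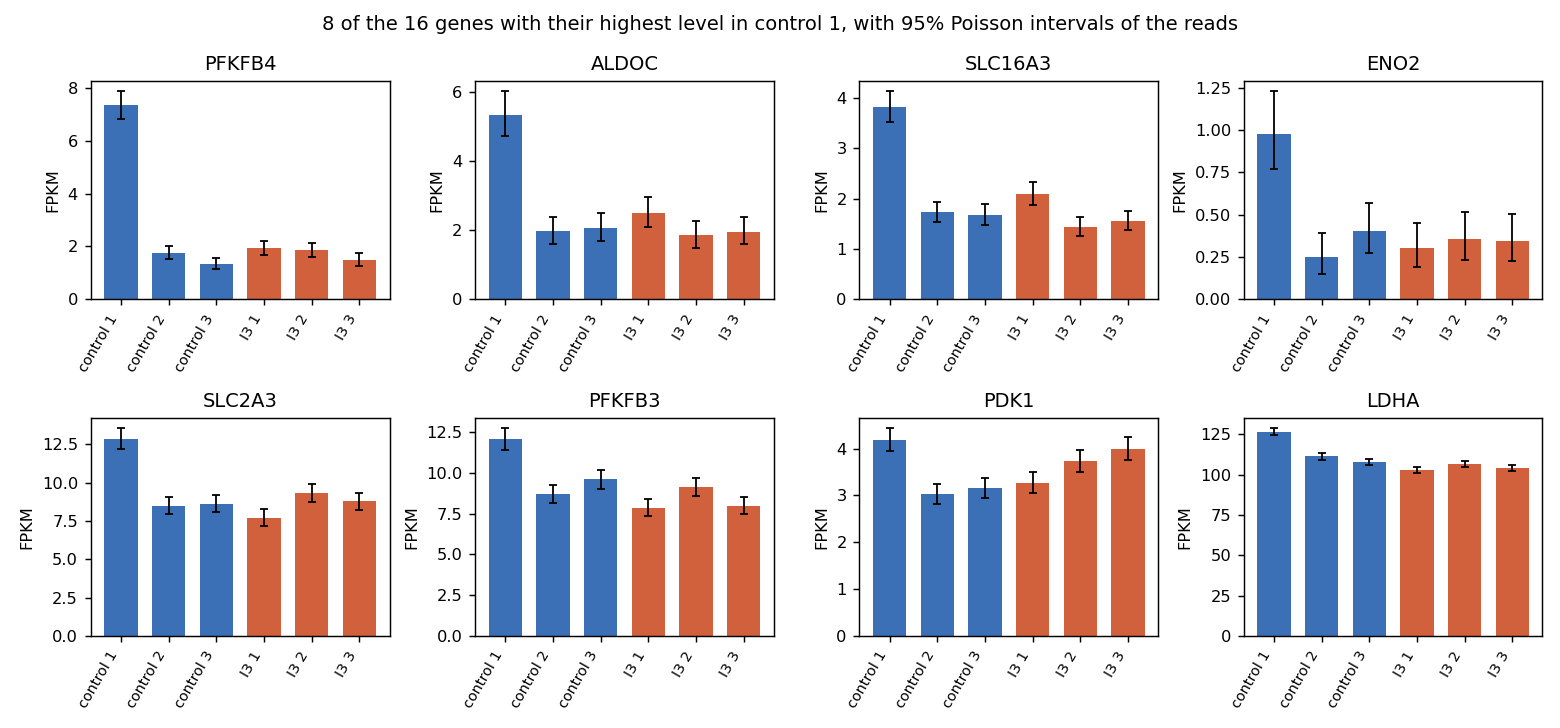
FPKM (y axis, from 0) of 8 genes by library, with controls in blue, I3 in orange and 95% Poisson intervals of the rebuilt reads, which cover counting error only. PFKFB4 stands at 7.35 FPKM in control 1 and between 1.34 and 1.94 FPKM elsewhere, and the excess of control 1 is smaller in SLC2A3, PFKFB3, PDK1 and LDHA.

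Leaving out control 1 changed the fitted values of these genes and not their calls. The log2 fold change of PFKFB4 was -0.50 (95% interval -1.67 to 0.66) with all libraries and 0.14 (-0.23 to 0.51) without control 1. That of ALDOC moved from -0.37 to 0.039, that of SLC16A3 from -0.34 to -0.015 and that of SLC2A3 from -0.18 to 0.0062. Among the less extreme genes it moved from -0.26 to -0.13 for PFKFB3, from -0.14 to -0.068 for LDHA, from -0.13 to -0.076 for PGM1, from -0.11 to -0.067 for SLC2A1 and from -0.027 to 0.033 for HK2. Without control 1 the interval lay within ±0.58 for 33 of the 33 genes, against 77.3% of all tested genes, and the fitted value was below 0 for 21 of the 33, against 45.2%. The reads of PFKFB4 in I3 libraries were then 1.13 times those of controls 2 and 3 (0.989 to 1.30), and those of PDK1 1.19 times (1.12 to 1.26), both with intervals for counting error only. Correction of each library for GC content left the excess of control 1 over the next highest library nearly as it was, at 1.71 instead of 1.69 on the log2 scale for PFKFB4, 0.99 instead of 0.96 for ALDOC and 0.70 instead of 0.74 for SLC16A3. For LDHA it went from 0.19 to 0.11. The depth of control 1 lay within that of the other libraries, and what set control 1 apart was not tested.

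**Figure D5:**
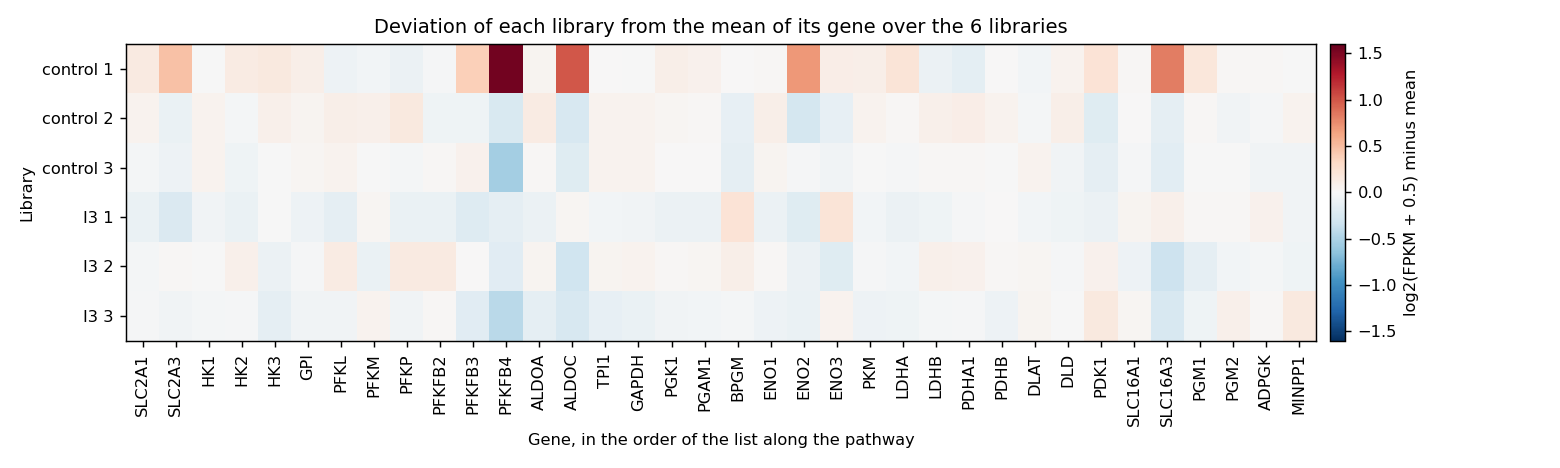
Deviation of each library (rows) from the mean of the gene over all 6 libraries on the log2(FPKM + 0.5) scale (color, red above and blue below) for the 36 genes. Control 1 is darkest at PFKFB4 and red at ALDOC, SLC16A3 and ENO2, and the abundant genes such as GAPDH, ENO1 and LDHB are pale in every row.

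The promoters of the 4 genes that stood highest together in control 1 are shown for the letters they hold. These genes were picked by their values in that library, so their matches are a description and test no cause. The 250 bases before the start of each gene came from RefSeq on GRCh38.p14, where 33 of the 36 genes were matched. The RefSeq starts differ from the outermost GENCODE starts, and the windows of these 4 genes lie wholly or in part inside the GENCODE genes. They were searched on both strands for 3 motifs. The motifs ACGTG and, with another first letter, GCGTG hold the core that hypoxia-inducible factors are known to bind. The third motif, CACGTG, is the E-box read by MYC and related factors and contains the first motif. The first motif was found in 12 of the 33 promoters and in 18.5% of 35116 promoters of that length, the second in 14 and in 32.2%, either of them in 20 and in 43.2%, and the E-box in 5 and in 6.34%. A single promoter was taken for each gene of the list, whereas the background counted every promoter, so these shares need not compare like with like. Capitals mark each match of the first 2 motifs, written as its reverse complement where it lies on the other strand, in the promoters of the 4 genes with at least a 1.5-fold excess in control 1, written along the strand of the gene. They lie at chr3:48556804-48557053 (minus strand, PFKFB4), chr17:28576896-28577145 (minus strand, ALDOC), chr12:6914330-6914579 (plus strand, ENO2) and chr17:82228185-82228434 (plus strand, SLC16A3).
PFKFB4: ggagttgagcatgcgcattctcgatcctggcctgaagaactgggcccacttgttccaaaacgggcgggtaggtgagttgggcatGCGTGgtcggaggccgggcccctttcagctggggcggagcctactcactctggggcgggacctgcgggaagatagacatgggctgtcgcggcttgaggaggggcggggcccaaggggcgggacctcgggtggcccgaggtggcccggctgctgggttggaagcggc
ALDOC: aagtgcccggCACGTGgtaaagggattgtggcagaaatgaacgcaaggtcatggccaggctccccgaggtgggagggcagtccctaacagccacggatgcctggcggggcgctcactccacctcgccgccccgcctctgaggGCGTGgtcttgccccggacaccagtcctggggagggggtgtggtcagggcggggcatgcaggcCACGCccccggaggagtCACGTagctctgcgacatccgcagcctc
ENO2: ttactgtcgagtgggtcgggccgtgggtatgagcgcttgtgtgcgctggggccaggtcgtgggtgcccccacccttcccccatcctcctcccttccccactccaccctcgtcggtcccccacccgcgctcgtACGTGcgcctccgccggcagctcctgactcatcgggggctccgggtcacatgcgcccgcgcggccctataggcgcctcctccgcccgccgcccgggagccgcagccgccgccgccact
SLC16A3: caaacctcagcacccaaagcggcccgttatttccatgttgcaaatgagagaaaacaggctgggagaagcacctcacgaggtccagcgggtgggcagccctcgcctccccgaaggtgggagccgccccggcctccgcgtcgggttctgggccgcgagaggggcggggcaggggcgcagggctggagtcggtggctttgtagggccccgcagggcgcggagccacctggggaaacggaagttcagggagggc
PFKFB4 had 1 match, which began 166 bases before the start, and ENO2 had 1, which began 118 bases before it. ALDOC had 5, of which 2 overlap in an E-box near its distal end. SLC16A3 had none, which says only that these letters are not in this window. A match is a description of the sequence, and binding was not measured.

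Beyond the 36 genes, 49 further genes of glucose handling were listed, of which 36 were in the table and 22 were tested. Of these, 13 were fitted above 0 and 9 below, with a median of 0.015, and only MPC1 had an unadjusted p below 0.05. At that p, 2.08% of all tested genes were higher and 2.85% lower after I3, the background for the lists below too. MPC1, a subunit of the carrier that takes pyruvate into mitochondria, had 16.7, 16.4 and 15.5 FPKM in the controls and 18.8, 17.9 and 18.3 FPKM after I3. The groups did not overlap, and the change was not called (log2 fold change 0.18, 95% interval 0.045 to 0.31, limma adjusted p = 0.845). PDP1, PDP2 and PDPR were also higher without overlap, and BSG and PGAM4 lower, against 5.06% and 4.64% of all tested genes. Of 8 tested pentose phosphate genes, 2 were fitted above 0 and 6 below, with a median of -0.059. RPE, which interconverts pentose phosphates, had the only unadjusted p below 0.05 among them, with 7.55 ± 0.494 FPKM in control and 8.79 ± 0.691 FPKM in I3 libraries (SD, n = 3 each) and overlapping groups (limma adjusted p = 0.998). The 16 genes of the citric acid cycle divided into 8 above and 8 below 0 with a median of 0.0022. Only IDH3A, a subunit of isocitrate dehydrogenase, had an unadjusted p below 0.05, with 4.55 ± 0.140 FPKM in control and 5.32 ± 0.266 FPKM in I3 libraries (SD, n = 3 each) and no overlap (limma adjusted p = 0.932). None of the 12 reference genes had an unadjusted p below 0.05, and their median was 0.014.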

How the data were processed

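mRNA-seq of Kasumi-1 cells was used, with 3 control and 3 I3 libraries grouped by their titles. The submitters' processing notes name Trimmomatic, HISAT2, Cufflinks, HTSeq and hg38, with no release of the annotation. The authors prepared libraries with a stranded poly(A) kit, tested counts with DESeq and deposited 1 FPKM value per gene and library, normalized to exon length and library size, so that no read count was given. Multiplied by the exon lengths of GENCODE release 29, which held 29703 of the 29810 genes, the values of 25393 of 26519 genes (95.754%) were whole multiples of 1 read in all libraries within 0.1 read. Reads rebuilt in this way gave the depth and the counting intervals, whose precision covers counting error only.

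I3 and control libraries were compared by limma 3.58.1 under R 4.3.3, with lmFit followed by eBayes and its trend option. The test used log2(FPKM + 0.5) of the 12960 genes that averaged 0.5 FPKM or more, two-sided and without covariates, with Benjamini-Hochberg adjustment over all of them. Fold changes are on that scale, which understates those of genes with low values. A gene was called at an adjusted p under 0.05 when its log2 fold change reached 0.58. The log-scale test replaced the count test of the study because the unit is FPKM. The procedure was also run on simulated data, whose outcome is not given here and is not used as support. Single values were compared by exact permutation tests (scipy 1.17.1, with pandas 2.3.3 and matplotlib 3.10.9 in Python 3.11.15). In 1 alternative each library was corrected for GC content by lowess with a span of 0.3, and voom was run on genes averaging 10 reads or more. The alternatives were other pseudocounts, minimums and scalings, the replicate block, each library left out, the GC correction and voom, and the removal of control 1 together with the GC correction was added after the data had been seen.

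All 36 genes of the list are named. Of the other lists (further glucose handling genes, the pentose phosphate pathway, the citric acid cycle, reference genes and cell markers), those at an unadjusted p below 0.05 are named. Further glucose handling genes whose groups did not overlap are named as well, and so is SLC16A7, set beside the lactate transporters of the list. The genes and lists were chosen with earlier results of these data known. Protein sequences were not used here. All 6 value columns were used.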

Additional observations from a re-analysis of the deposited data

How the results depend on the processing

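Over 19 alternatives to the main test, none of the 36 genes was called at the adjusted p, and the median log2 fold change of the tested genes kept its sign. The count of these genes lower at an unadjusted p below 0.05, 0 in the main test, was 1 without a minimum FPKM (GPI), 2 with median-of-ratios scaling (GPI and LDHA), 1 with quantile normalization (ENO1), 2 with the GC correction (LDHA and ENO1), 1 with voom on rebuilt reads (PFKFB3) and 2 with control 1 left out together with the GC correction (LDHA and ENO1). With 1 library left out at a time it ranged from 0 to 2, with 1 without control 2 (PFKFB3), 1 without control 3 (LDHA) and 2 without I3 2 (ALDOA and ENO1). The count of all called genes, 0 in the main test, ranged from 0 to 2 with 1 library left out and was 1 with control 1 left out together with the GC correction. It was 1 without control 1, 2 without I3 1 and 1 without I3 2. The cause was not tested.

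With the replicate block 3 genes (ALDOA, PGM1 and ENO1) had an unadjusted p below 0.05 with lower values after I3. This count and those above stand without the share of all tested genes under the same alternative. They cannot be read as more or fewer than that share. The correlations of same-numbered control and I3 libraries were 0.063, 0.15 and -0.024. These low values over 3 libraries per group cannot decide whether the numbers pair the libraries, and the labels do not say.

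The number of isozyme shares without overlap between groups, 1 in the main test, was 2 with quantile normalization and ranged from 1 to 4 with 1 library left out, where fewer libraries make such a separation easier. Of 622 log2 fold changes of single genes under the alternatives, 609 moved by less than the spread between libraries and 13 by more. Of these 13, 12 came with control 1 left out together with the GC correction, and the other was GAPDH at 0.0078 with quantile normalization. For PFKFB4, ALDOC and SLC16A3 control 1 itself widened that spread, and their fitted values without control 1 are given above. None of 136 share differences moved by more than the spread. The fitted sign turned in at least 1 alternative for 16 of the 33 tested genes and in none of those run for 17. PFKM and ENO2 had only 2 alternatives each and HK3 had 0. Counting error limits HK3, PFKM and ENO2, and for the abundant genes the spread between libraries was the limit.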
